A study of Mus musculus with 47 samples.

Results

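The lysosome genes are the 161 genes that the deposited table of LPS-treated bone marrow-derived macrophages (BMDMs) assigns to the lysosome map of the KEGG pathway database, out of 51912 genes listed there. The same genes were followed in the tables of untreated and IL-4-treated BMDMs and, by symbol, in the tables of Raw264.7 macrophage lines, which together cover 12 RNA-seq libraries. Of the 161 genes, 117 fell into 10 role lists (proteases, glycosidases, sulfatases, lipid hydrolases and activators, phosphatases and nucleases, membrane proteins, transporters and channels, V-ATPase, mannose 6-phosphate tagging, coats and adaptors), and 44, many of them pseudogenes, fell into none. In BMDMs, 131 of them had a count in at least 1 library. The IL-4 table annotates 171 genes to the same map, of which 13 are not among the 161, and it leaves out 3 of the 161.

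BMDMs are macrophages grown from mouse bone marrow cells (strain C57BL/6) with M-CSF. Both genotypes were littermates with a floxed Zmynd8 allele (Zmynd8 fl/fl): WT mice had no Cre, and Zmynd8 cKO mice had Cre driven by the Lyz2 locus, which is active in myeloid cells. ZMYND8 is a nuclear reader of histone marks. BMDMs were left untreated (NT) or treated for 6 h with LPS (100 ng/ml), a bacterial cell wall component that macrophages sense, or with the cytokine IL-4 (20 ng/ml), and 3 biological replicates were mixed into the 1 library of each condition. In the Raw264.7 lines, a mouse macrophage line, Zmynd8 or p65 (the NF-κB subunit encoded by Rela) had been knocked out with a guide RNA. The Zmynd8 KO line was also sequenced with WT Zmynd8 put back or with D/E-A, a mutant whose acidic residues were changed to alanine, and the labels give no treatment for these lines, although the study describes such lines as sequenced after LPS. The p65 KO line was sequenced with LPS alone, with WT p65 put back, or with K122R, a p65 whose lysine was changed to arginine, also with LPS. The header of the WT p65 column reads only WT and LPS, without the knockout. Each condition and line has 1 library, so no difference has a replicate check, and every interval and read test covers counting error only.

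BMDM libraries held 22597408 to 28386612 counts and Raw264.7 libraries 15127110 to 21042628 reads. The 8 macrophage markers were detected in all libraries. Counts per gene do not resolve the floxed exons, and Zmynd8 did not check the BMDM labels: it had 2284 counts in WT NT and 1842 in cKO NT, 1967 and 2033 with LPS, and 3636 and 3944 with IL-4. The labels mark the BMDM conditions only as M0, M1 and M2, which were read as NT, LPS and IL-4 from the study's description. The IL-4 libraries also carry sample numbers apart from the consecutive ones of the NT and LPS libraries, so IL-4 and whatever those numbers stand for cannot be told apart. Both IL-4 libraries held neutrophil transcripts (S100a9 at 121.6 and 185 CPM, against at most 0.531 CPM in NT and LPS). The libraries labelled Raw264.7 with a Zmynd8 genotype stood apart from the p65 lines. Their neutrophil gene S100a9 had values of 67096 with WT Zmynd8 and 41518 in the KO, and Xist had values of 8829 and 6817, whereas S100a9 was not listed and Xist stayed between 0 and 3.05 in the p65 lines. These libraries go against their cell line label, and the comparisons between them are given as such.

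Lysosomes are acidic organelles that digest proteins, glycans and lipids delivered by endocytosis, phagocytosis and autophagy. Their hydrolases receive a mannose 6-phosphate tag in the Golgi, are carried by receptors and clathrin adaptors, and work at the low pH that the V-ATPase proton pump maintains. The transcription factors TFEB, TFE3 and MITF bind a motif named CLEAR in the promoters of many lysosomal genes. In macrophages lysosomes degrade engulfed material, cut antigens and shape the response to microbes.

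The CLEAR core GTCACGTG was searched for on both strands in RefSeq promoters (GRCm38.p6, 250 bases before to 50 after the start site). Of the 109 lysosome genes that averaged 10 counts or more per BMDM library, 83 matched a promoter. The core lay in 17 of them (20.48%), against 4.79% of the 9539 promoters of expressed genes. The wider letters CACGTG, which lie inside the core, were in 20 promoters (24.1%) against 11.8%. A κB motif, the kind of site that p65 binds, was in 1 (1.205%), that of Ppt2, against 1.89%. The holders of the core span roles: Ctsd and Lgmn (proteases), Gla, Glb1 and Naglu (glycosidases), Sgsh and Sumf1 (sulfatase and sulfatase activator), Lamp1 and Cd164 (membrane proteins), Mcoln1 (calcium channel), Atp6v0b and Atp6v0d1 (V-ATPase), Igf2r, Gnptg and Nagpa (mannose 6-phosphate pathway), and Ap1s2 and Gga2 (adaptors). A match is a description of letters and not a bound site.

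The stretches below show the core, or its reverse complement, in capitals, written in the direction of the gene. The 6 genes are the holders of the core with the highest mean TPM whose match lies wholly before the start site. Their positions are chr7:142387888-142387955 on the minus strand for Ctsd, chr8:13159103-13159160 on the plus strand for Lamp1, chr12:102439106-102439173 on the minus strand for Lgmn, chr4:117887330-117887397 on the minus strand for Atp6v0b, chrX:134601164-134601231 on the minus strand for Gla and chr10:41519383-41519450 on the plus strand for Cd164. The core began 28 bases before the start site in Lamp1, 38 in Atp6v0b, 51 in Lgmn, 87 in Cd164, 98 in Ctsd and 196 in Gla, and Ctsd holds 2 such matches, of which the one nearer the start is shown.
Ctsd: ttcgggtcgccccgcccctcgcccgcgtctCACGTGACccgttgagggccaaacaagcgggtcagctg
Lamp1: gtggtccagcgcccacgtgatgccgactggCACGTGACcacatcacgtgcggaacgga
Lgmn: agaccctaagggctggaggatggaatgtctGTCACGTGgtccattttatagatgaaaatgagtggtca
Atp6v0b: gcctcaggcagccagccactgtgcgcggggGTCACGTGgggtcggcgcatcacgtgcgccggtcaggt
Gla: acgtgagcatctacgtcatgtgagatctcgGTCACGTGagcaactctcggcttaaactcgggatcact
Cd164: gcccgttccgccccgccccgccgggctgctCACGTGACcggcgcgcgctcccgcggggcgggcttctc

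The other pair of promoters shown are those of Ctsc and Ctsk, the members with the largest rise after LPS in both genotypes (Ctsc) and the largest excess in cKO over WT in NT and after IL-4 (Ctsk). The 250 bases before their starts hold none of the letters searched and are therefore in lower case throughout. They lie at chr7:88277835-88278084 (Ctsc) and chr3:95498960-95499209 (Ctsk), both on the plus strand.
Ctsc: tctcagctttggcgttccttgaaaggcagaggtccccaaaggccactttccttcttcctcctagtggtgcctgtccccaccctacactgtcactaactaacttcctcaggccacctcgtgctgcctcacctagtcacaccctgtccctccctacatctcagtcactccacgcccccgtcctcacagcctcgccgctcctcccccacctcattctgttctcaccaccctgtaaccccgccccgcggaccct
Ctsk: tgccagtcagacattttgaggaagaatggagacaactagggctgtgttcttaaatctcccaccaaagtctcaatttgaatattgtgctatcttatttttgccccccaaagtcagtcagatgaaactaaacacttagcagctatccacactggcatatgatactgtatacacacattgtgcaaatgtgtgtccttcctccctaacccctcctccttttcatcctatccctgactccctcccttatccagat

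Lysosome genes took a large part of the BMDM transcriptome. They held 8.98% of all counts in WT NT, 6.98% in WT LPS and 6.13% in WT IL-4, and 8.34%, 6.26% and 5.57% in the cKO libraries in the same order. The share was lower in cKO than in WT under each condition, and lower after each treatment than in NT. By TPM, a level per transcript length, the shares were 6.03%, 4.43% and 4.36% in WT and 4.82%, 4.13% and 3.95% in cKO. Without Ctsb, Psap and Ctsd the share of counts was 3.85% in WT NT, 3.36% in WT LPS and 3.64% in WT IL-4, and by TPM it was 3.33%, 2.74% and 3.05%. In cKO it was 3.61%, 3.06% and 3.49% of counts in the same order, and 2.76%, 2.56% and 2.91% by TPM, where the IL-4 library was the highest. The summed level of the 8 macrophage markers, with Lyz2 largest in each library, was 15994 CPM in WT NT, 11766 in WT LPS and 17925 in WT IL-4. In cKO it was 11403, 8251 and 13961 CPM, lower than in WT each time but highest after IL-4. The part of these markers in the shares was not tested. In bulk samples, fewer cells of a type and less RNA per cell cannot be told apart.

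The 10 members of highest mean TPM over the BMDM libraries were Psap, Ctsd, Ctsb, Ctss, Cd68, Ctsz, Atp6v0c, Ctsl, Lamp1 and Ctsc, 6 of them cathepsins with a mean from 1050 TPM (Ctsc) to 5988 TPM (Ctsd). Psap, the precursor of the saposins that help hydrolases reach sphingolipids, had 9646 TPM in WT NT, 8463 in WT LPS and 3656 in WT IL-4, and 6639, 8442 and 3279 TPM in cKO. Its level after IL-4 was the lowest in both genotypes. Ctsd, the aspartic protease cathepsin D, had 10878 TPM in WT NT, 3598 in WT LPS and 6047 in WT IL-4, and 8660, 2738 and 4007 TPM in cKO, so the LPS libraries were lowest. Ctsc, cathepsin C (the dipeptidyl peptidase that activates granule serine proteases), went the other way, with 148 TPM in WT NT, 1275 in WT LPS and 1568 in WT IL-4, and 100.7, 1453 and 1753 TPM in cKO. The ranges of NT and treated libraries did not overlap for Ctsc, nor did they for Ctsd, and this was not counted over all members.

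**Figure D1:**
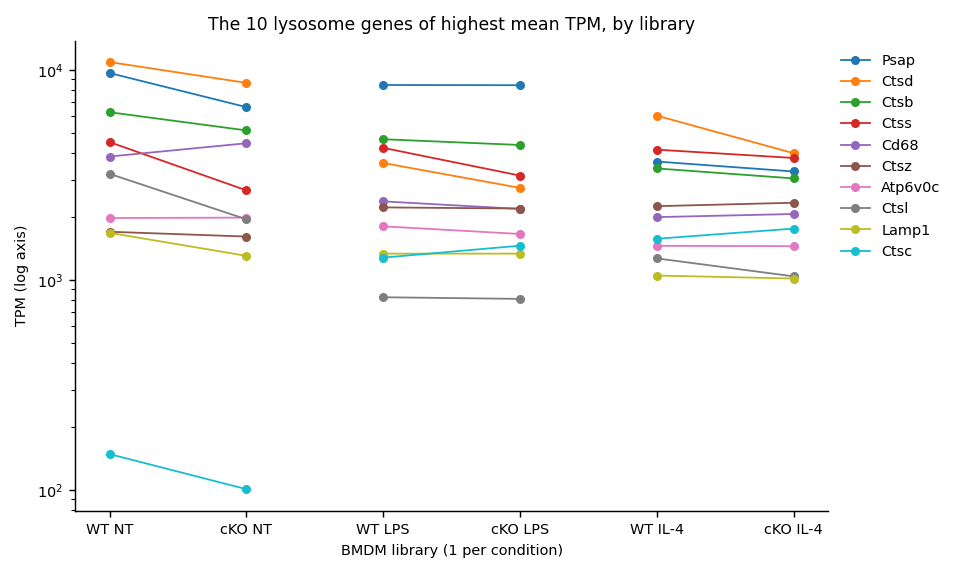
TPM (log axis) of the 10 lysosome genes of highest mean TPM in the 6 BMDM libraries, 1 point per library, with a line joining WT and cKO under the same condition. Ctsc sits at 148 and 100.7 TPM in the NT libraries and above 1270 TPM in the others, while Ctsd is highest in NT and lowest after LPS.

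After LPS, most lysosome genes took a smaller share of the library than in NT, with Ctsc, Ctsh and Cd164 as exceptions. A gene was called higher or lower at a fold change of at least 1.2 on the scale of CPM plus 1 with an adjusted p under 0.05 from an exact binomial test on the reads of the 2 libraries. In WT, 20 of 109 tested members were called higher (all genes: 20.6%) and 68 lower (61.1%). In cKO, 22 of 108 were called higher (23.8%) and 72 lower (58.9%). In both genotypes the members' median on the log2 scale was -0.63, against -0.58 (WT) and -0.55 (cKO) for all genes tested, so the lysosome genes moved about as far as the library as a whole. Scaling by the median ratio of genes instead raised the log2 fold changes by about 0.68 in WT and 0.64 in cKO and brought the median of all genes to 0.01 in both. It gave 46 members higher (37.8%) and 35 lower (36.7%) in WT, and 37 higher (39.5%) and 42 lower (37.7%) in cKO. Members called in the same direction in both genotypes, which do not share libraries, numbered 17 higher (17.0%) and 63 lower (52.4%), or 32 higher (30.2%) and 30 lower (29.0%) by the median ratio.

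Within this shift the counts by role were as follows, with no test between roles. Of the 15 glycosidases, enzymes that remove sugars from glycans, 13 were called lower (all genes: 61.1%) and 1 higher (20.6%) in WT (median log2 fold change -0.94), and 14 lower (58.9%) and 1 higher (23.8%) in cKO (-1.15). By the median ratio 7 were lower (36.7%) and 4 higher (37.8%) in WT, and 8 lower (37.7%) and 2 higher (39.5%) in cKO. Galc, which cleaves galactosylceramide, had 118 CPM in WT NT and 9.80 in WT LPS, and 88.7 and 13.3 CPM in cKO; it fell by 3.46 and 2.65 on the log2 scale. Gusb, the β-glucuronidase, had 698 CPM in WT NT and 166 in WT LPS, and 752 and 179 in cKO. Hexa, a β-hexosaminidase subunit, had 1029 and 414 CPM in WT and 1071 and 402 CPM in cKO. The exception was Gla, the α-galactosidase A, with 243 and 467 CPM in WT and 197 and 356 CPM in cKO, log2 fold changes of 0.94 and 0.85. These glycosidases kept their direction by the median ratio.

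Among 14 tested proteases, 4 were called higher (all genes: 20.6%) and 6 lower (61.1%) in WT (median -0.07), and 3 higher (23.8%) and 8 lower (58.9%) in cKO (-0.58), the latter near the shares of all genes. By the median ratio the protease counts turned to 9 higher (37.8%) and 2 lower (36.7%) in WT, and 5 higher (39.5%) and 3 lower (37.7%) in cKO. Ctsc rose from 235 to 2140 CPM in WT and from 194 to 2291 CPM in cKO, log2 fold changes of 3.18 (95% counting limits 3.15 to 3.23, which here and below are on the ratio of counts without the pseudocount) and 3.56 (3.52 to 3.61). Ctsh, the aminopeptidase cathepsin H, rose from 212 to 924 CPM in WT and from 178 to 672 CPM in cKO. Ctsl, cathepsin L, fell from 3083 to 892 CPM in WT and from 2501 to 749 CPM in cKO. Ctsd fell from 14530 to 5047 CPM in WT and from 13808 to 3624 CPM in cKO. Ctss and Lgmn, which process antigens and the invariant chain, had 3543 and 3503 CPM (Ctss) and 1330 and 1319 CPM (Lgmn) in WT NT and LPS. The log2 fold changes there were -0.02 and -0.01, which are above the median of all genes. In cKO Ctss had 2502 and 2437 CPM and was not called, and Lgmn rose from 796 to 1118 CPM, a log2 fold change of 0.49.

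Coats and adaptors, which carry enzymes from the Golgi, were mostly lower as a share of the library. Of 22 tested, 1 was called higher and 18 lower in WT (all genes: 20.6% and 61.1%), or 6 and 6 by the median ratio. In cKO 3 were higher and 16 lower (23.8% and 58.9%), or 6 and 8 by the median ratio. Among the members that fell furthest in both genotypes were Sort1, Ap1s2 and Gga2. Sort1, the sorting receptor sortilin, had 44.3 CPM in WT NT and 1.93 in WT LPS, and 43.9 and 2.69 CPM in cKO. Ap1s2, an AP-1 adaptor subunit, had 85.9 and 6.83 CPM in WT and 79.5 and 8.02 CPM in cKO. Gga2, an adaptor for mannose 6-phosphate receptors, had 72.9 and 10.6 CPM in WT and 67.9 and 8.96 CPM in cKO. The receptors themselves split: M6pr rose from 476 to 762 CPM in WT and from 457 to 924 CPM in cKO, and Igf2r fell from 420 to 119 CPM in WT and from 219 to 143 CPM in cKO. For Igf2r in cKO the log2 fold change of -0.62 became 0.04 by the median ratio.

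Membrane proteins also split, with 5 of 13 called higher and 7 lower in each genotype, where 20.6% and 61.1% of all genes were called in WT and 23.8% and 58.9% in cKO. Scaled by the median ratio, 6 were higher and 2 lower in WT (all genes: 37.8% and 36.7%), and 6 higher and 6 lower in cKO (39.5% and 37.7%). Cd164, the sialomucin endolyn, rose from 130 to 518 CPM in WT and from 100 to 508 CPM in cKO. Lamp2, a main glycoprotein of the lysosomal membrane, rose from 600 to 1007 CPM in WT and from 437 to 1062 CPM in cKO. Lamp1, its relative, had 2364 and 1979 CPM in WT and 2200 and 1868 CPM in cKO and was not called in either. Npc1, which exports cholesterol from lysosomes, fell from 442 to 142 CPM in WT and from 352 to 153 CPM in cKO, whereas its partner Npc2 rose from 1982 to 2848 and from 1453 to 2290 CPM. Lipa, the acid lipase, fell from 1595 to 308 CPM in WT and from 1369 to 343 CPM in cKO. Atp6v0d2, a V-ATPase subunit, fell from 209 to 43.7 CPM in WT and from 171 to 40.2 CPM in cKO, beside 4 of 9 V-ATPase members lower in WT and 7 in cKO, with 1 higher in each. By the median ratio 5 V-ATPase members were higher and 3 lower in WT, and 3 higher and 4 lower in cKO.

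**Figure D2:**
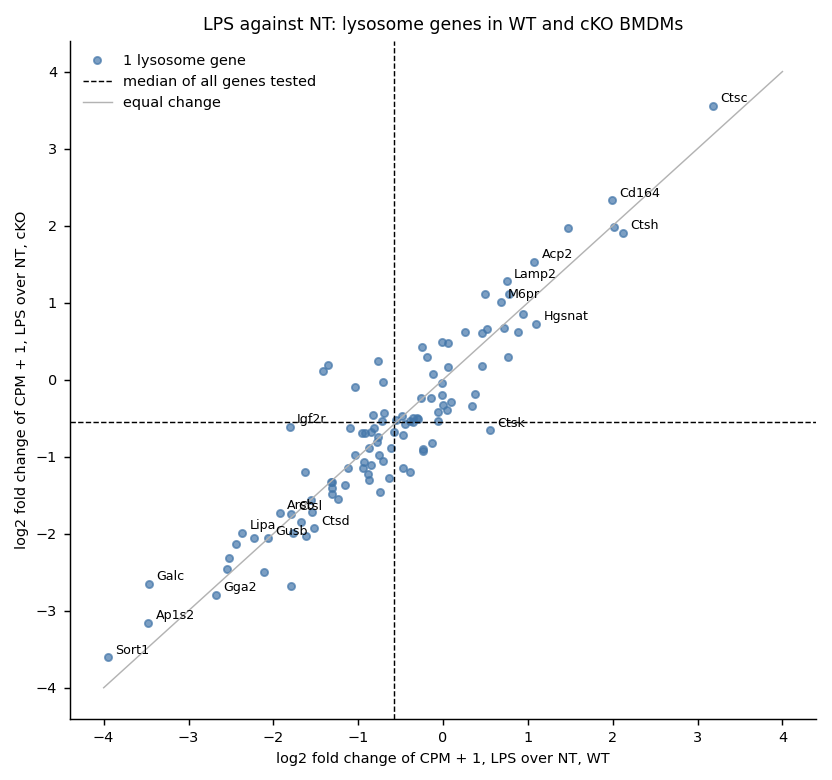
Log2 fold change of CPM plus 1 after LPS against NT in WT BMDMs (x axis) and cKO BMDMs (y axis), 1 point per lysosome gene tested in both, with the median of all genes dashed at -0.58 and -0.55 and equal change as a grey line. Ctsc lies at the top right, Sort1, Ap1s2 and Galc at the bottom left, and Ctsk and Igf2r off the line.

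The LPS response was larger or smaller in cKO than in WT for some members. The difference of the 2 responses, on counts without a pseudocount, had 95% counting limits above 0 for 36 of 103 members (all genes: 40.4%) and below 0 for 38 (28.3%), with a median of -0.02 against 0.08 for all genes. For the IL-4 response the limits were above 0 for 37 of 105 members (36.5%) and below 0 for 38 (29.1%). These differences moved with transcript length: Spearman's correlation of the LPS difference with length was 0.62 over 9442 genes and 0.55 over the members, and the part of length in single members was not tested. Igf2r had a response of -1.82 in WT and -0.62 in cKO, a difference of 1.199 (1.11 to 1.29). Cltc, the clathrin heavy chain, had -0.77 and 0.24, a difference of 1.009 (0.96 to 1.06). Ctsk, cathepsin K, a collagen-degrading protease best known from osteoclasts, had 0.57 and -0.67, a difference of -1.24 (-1.43 to -1.06). Differences between single libraries beyond counting error do not show that the genotypes differ.

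After IL-4, Ctsc and Pla2g15 rose and the abundant Psap, Ctsb and Cd68 fell, and the lysosome genes had no common direction. In WT, 37 of 110 tested members were called higher (all genes: 38.6%) and 39 lower (21.7%), and in cKO 38 of 109 higher (42.2%) and 40 lower (24.8%). Members had a median log2 fold change of 0.02 in WT and 0.03 in cKO, against 0.15 and 0.17 for all genes. By the median ratio, 27 were higher (29.0%) and 49 lower (29.4%) in WT, and 26 higher (34.2%) and 51 lower (32.9%) in cKO. Called in both genotypes were 28 higher (28.9%) and 33 lower (14.8%), or 21 higher (21.1%) and 43 lower (21.1%) by the median ratio. The share called lower was therefore above that of all genes under either scaling. The neutrophil marker list moved with this comparison: 8 of its 9 genes were above 1 CPM in both IL-4 libraries and 1 in each NT library, and its summed level was 388 CPM in WT IL-4 and 521 in cKO IL-4 against 2.33 and 2.44 CPM in NT. Ly6g stayed at most at 0.106 CPM. The part of these transcripts in the members' values was not tested.

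The members listed as membrane proteins and V-ATPase were mostly lower after IL-4, while V-ATPase genes outside the map are given further below. Of 13 membrane proteins, 9 were called lower (all genes: 21.7%) and 3 higher (38.6%) in WT (median -0.47), and 8 lower (24.8%) and 3 higher (42.2%) in cKO (-0.59). Scaled by the median ratio, 9 were lower (29.4% in WT and 32.9% in cKO) and 3 higher (29.0% and 34.2%) in each genotype. Cd68, the macrophage macrosialin, fell from 2555 to 1307 CPM in WT and from 3466 to 1372 CPM in cKO. Lamp1 fell from 2364 to 1458 CPM in WT and from 2200 to 1435 CPM in cKO. Cd63, a tetraspanin, fell from 794 to 379 CPM in WT and from 983 to 380 CPM in cKO. Npc1 and Laptm4a were among the exceptions in both genotypes. Of 9 V-ATPase members, none was called higher, and 5 in WT and 7 in cKO were lower, or 7 in each by the median ratio. Atp6v0d2 fell from 209 to 71.1 CPM in WT and from 171 to 55.4 CPM in cKO, and Tcirg1, the large membrane subunit, fell from 1043 to 625 and from 867 to 663 CPM.

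Proteases went both ways, with 7 of 15 called higher and 5 lower in WT (all genes: 38.6% and 21.7%), and 8 higher and 4 lower in cKO (42.2% and 24.8%). The median ratio gave 6 higher and 7 lower in WT (29.0% and 29.4%), and 6 higher and 5 lower in cKO (34.2% and 32.9%). Ctsc rose to 2494 CPM in WT and 2852 CPM in cKO, log2 fold changes of 3.40 (limits 3.37 to 3.45) and 3.87 (3.84 to 3.93). Ctsk fell from 20.7 to 1.30 CPM in WT and from 101.8 to 13.6 CPM in cKO. Ctsb, cathepsin B, fell from 20243 to 10775 CPM in WT and from 19820 to 9835 CPM in cKO. Ctsg, cathepsin G, a granule protease of neutrophils, had 1 and 0 counts in NT and 49 and 72 counts in the IL-4 libraries, beside the neutrophil genes named above. Ctla2a, a small cysteine protease inhibitor whose sequence resembles a cathepsin propeptide, rose from 88 to 1377 counts in WT and from 111 to 1620 counts in cKO. Gm20460 also rose, but it is annotated as an overlapping locus, so its reads cannot be told from those of its neighbours.

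Glycosidases were mixed, with 4 of 15 higher and 3 lower in WT (all genes: 38.6% and 21.7%) and 4 higher and 5 lower in cKO (42.2% and 24.8%). The median ratio gave 1 higher and 7 lower in WT (29.0% and 29.4%), and 2 higher and 9 lower in cKO (34.2% and 32.9%). Hexa had 1029 and 860 CPM in WT, where it was not called, and fell from 1071 to 737 CPM in cKO. Gla, higher after LPS, was lower after IL-4, from 243 to 103 CPM in WT and from 197 to 97.8 CPM in cKO. Of the lipid hydrolases, Pla2g15, a lysosomal phospholipase, rose from 127 to 716 CPM in WT and from 108 to 566 CPM in cKO, while Psap fell from 16565 to 6166 CPM and from 13629 to 5637 CPM. Hgsnat, the acetyltransferase of heparan sulfate breakdown, fell from 164 to 51.2 CPM in WT and from 167 to 54.5 CPM in cKO. Hgsnat had gone the other way after LPS, from 164 to 352 CPM in WT and from 167 to 277 CPM in cKO.

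**Figure D3:**
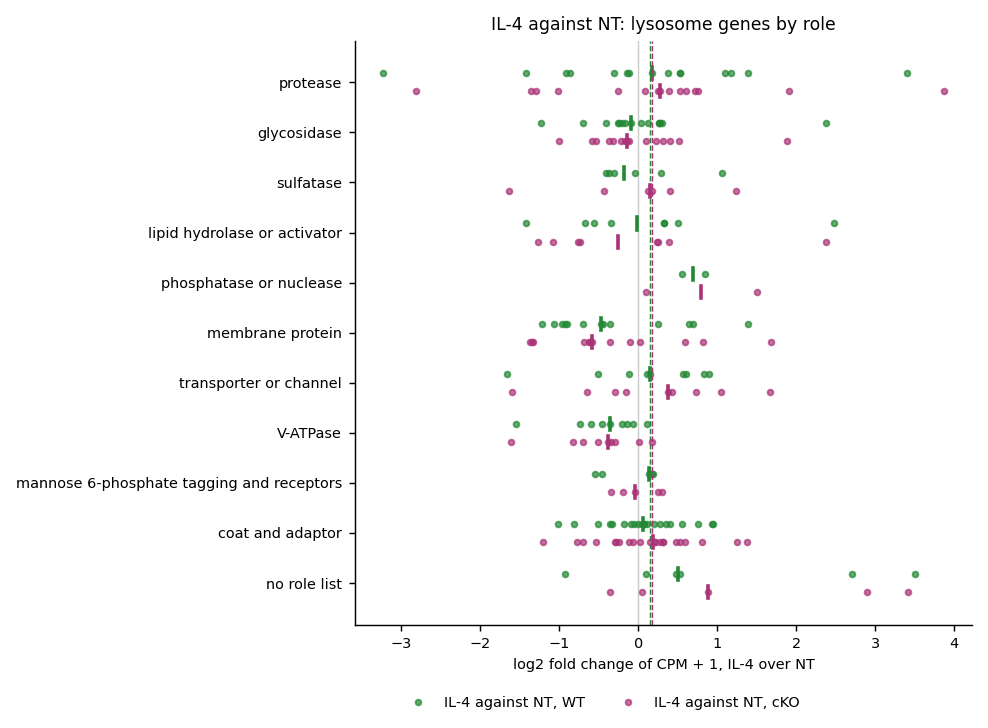
Log2 fold change of CPM plus 1 after IL-4 against NT for each tested lysosome gene (points) by role, in WT and cKO BMDMs, with thick bars at each role's median and dashed lines at the median of all genes, 0.15 and 0.17. Membrane proteins and V-ATPase members lie mostly left of the dashed lines, and Ctsc and Ctla2a lie farthest to the right.

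The members whose promoter holds the CLEAR core were described side by side with the others. After IL-4, 1 of the 17 with the core was called higher (all genes: 38.6%) and 10 lower (21.7%) in WT (median -0.36), and 2 higher (42.2%) and 11 lower (24.8%) in cKO (-0.34). Of the 66 without it, 26 were higher and 19 lower in WT (0.11), and 26 higher and 20 lower in cKO (0.13). After LPS the medians were -0.76 with the core and -0.70 without it in WT, and -0.75 and -0.66 in cKO. No test was made of these splits. Ctsd, Lamp1, Gla and Cd164, whose cores are printed above, were all lower after IL-4 in both genotypes. Atp6v0b had a log2 fold change of -0.14 in WT, where it was not called, and -0.35 in cKO, where it was lower. Lgmn had -0.12 in WT, where it was not called, and 0.53 in cKO.

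The factors that bind the CLEAR motif are not on the map and were read from a separate list of 24 regulators. After LPS in WT, 17 of 23 tested regulators were lower (all genes: 61.1%) and none higher (20.6%), and in cKO 16 were lower (58.9%) and 4 higher (23.8%). By the median ratio these became 10 lower (36.7%) and 9 higher (37.8%) in WT, and 12 lower (37.7%) and 7 higher (39.5%) in cKO. With IL-4 the WT list had 12 of 24 higher (38.6%) and 6 lower (21.7%), or 10 (29.0%) and 8 (29.4%) by the median ratio. In cKO it had 13 of 23 higher (42.2%) and 8 lower (24.8%), but 7 higher and 9 lower when centred on the median of genes of similar length. Tfeb had 992 counts in WT NT, 543 in WT LPS and 2468 in WT IL-4, and 933, 468 and 1538 in cKO. Tfec, a relative expressed in macrophages, had 354, 128 and 2449 counts in WT and 335, 90 and 2565 in cKO. Mitf had 1957, 1841 and 6022 counts in WT and 1264, 2625 and 5880 in cKO. Tfe3 had 3271, 2713 and 6416 counts in WT and 2864, 2600 and 5277 in cKO. Each of these factors was called higher after IL-4 in both genotypes, but the call of Tfe3 in cKO was lost when centred on length (0.14). Of 10 tested V-ATPase genes that are not among the members, most of them subunits of the cytosolic V1 sector, 6 were lower (all genes: 61.1%) and 2 higher (20.6%) after LPS in WT. In cKO 8 were lower (58.9%) and 1 higher (23.8%). By the median ratio 3 were lower (36.7%) and 4 higher (37.8%) in WT, and 2 lower (37.7%) and 2 higher (39.5%) in cKO. After IL-4, 4 were lower (21.7%) and none higher (38.6%) in WT, and 4 lower (24.8%) and 1 higher (42.2%) in cKO, the higher one being Atp6v1a. By the median ratio 6 were lower (29.4%) and none higher (29.0%) in WT, and 6 lower (32.9%) and 1 higher (34.2%) in cKO. Fusion and transport machinery, such as SNAREs, was 15 of 18 lower (61.1%) and 2 higher (20.6%) after LPS in WT, and 13 lower (58.9%) and 1 higher (23.8%) in cKO. By the median ratio 3 were lower (36.7%) and 6 higher (37.8%) in WT, and 5 lower (37.7%) and 6 higher (39.5%) in cKO. After IL-4 in WT, Borcs8, Vps39, Vps33a, Vps18, Plekhm1, Borcs5 and Vamp8 were higher, and Stx8, Arl8a, Rab7b and Rab7 lower. There, by the median ratio, Plekhm1 and Borcs5 alone stayed higher, and Stx7, Vti1b and Arl8b were also lower.

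Between genotypes the lysosome genes differed less than between treatments. In NT, 14 of 109 tested members were called higher in cKO (all genes: 21.7%) and 31 lower (25.9%), with a median log2 fold change of -0.07. Under LPS the called members were 9 higher (17.1%) and 18 lower (8.76%) among 108, and the median was -0.09. By the median ratio they were 6 higher (14.5%) and 28 lower (11.1%). Under IL-4 they were 7 higher (13.8%) and 16 lower (10.5%) among 111, and the median was -0.07. Only Ctsk among 108 members tested in all 3 conditions was called higher in all of them (all genes: 0.788%), and none was called lower in all of them (0.315%). Medians of all genes were between -0.01 and 0.03.

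Differences between cKO and WT moved with transcript length. Over 12440 genes in NT, Spearman's correlation of the log2 fold change with the length of the longest annotated transcript was -0.52, and over the 109 members it was -0.44. Genes whose longest transcript had up to 2089 bases had a median of 0.29, and those above 4673 bases a median of -0.34. After LPS the correlation had the opposite sign, 0.34 over 12360 genes and 0.36 over 108 members, and after IL-4 it was -0.12 and -0.27. Genes of a library share its RNA and its preparation, so these are descriptions. Each gene was therefore also set against the median of genes of similar length, which leaves 10 members higher (17.3%) and 28 lower (18.6%) in NT. With LPS it leaves 6 higher (11.1%) and 26 lower (9.50%), and with IL-4 it leaves 5 higher (13.1%) and 18 lower (10.6%). The part of length in single members was not tested.

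**Figure D4:**
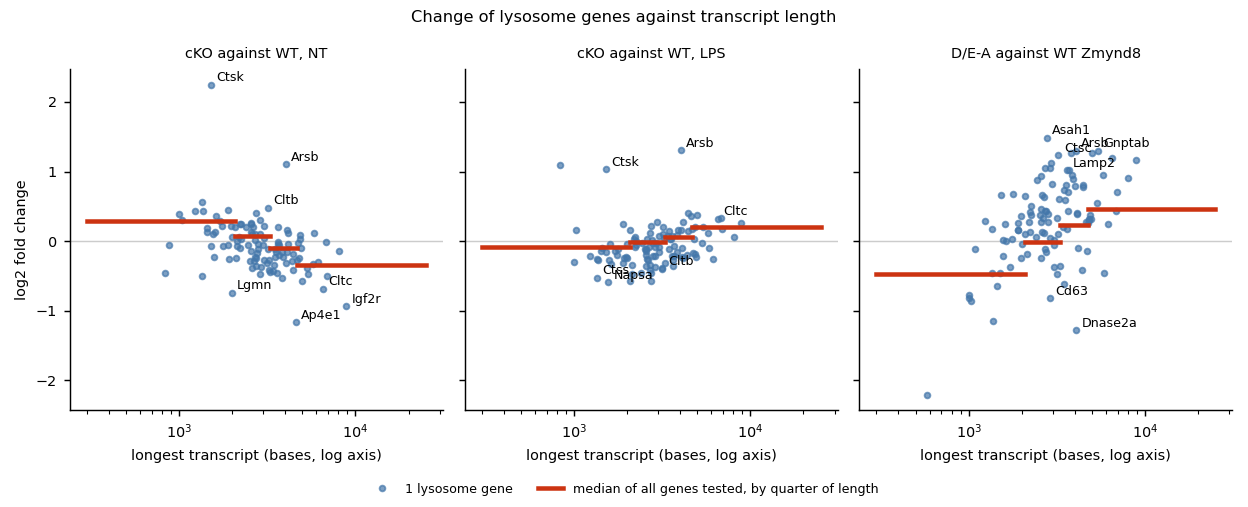
Log2 fold change of each lysosome gene (points) against the length of its longest transcript in bases (log axis), in 3 comparisons, with thick bars at the median of all genes tested in each of 4 bins of length with equal numbers of genes. The bars fall from 0.29 to -0.34 for cKO against WT in NT, and rise from -0.08 to 0.20 after LPS and from -0.47 to 0.46 for D/E-A against WT Zmynd8, and Ctsk and Arsb lie above the bars in both BMDM panels.

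Ctsk was the member with the largest difference between genotypes in NT and after IL-4. It had 542 counts in WT NT and 2301 in cKO NT, 767 and 1503 with LPS, and 37 and 356 with IL-4. This is 20.7 and 101.8 CPM in NT, 30.8 and 64.1 CPM after LPS, and 1.30 and 13.6 CPM after IL-4, with cKO higher each time. The log2 fold changes were 2.25 (limits 2.16 to 2.44), 1.03 (0.93 to 1.19) and 2.67; after IL-4 the limits, which leave out the pseudocount, were 2.90 to 3.92. It kept its call when centred on length. The 7 osteoclast markers went both ways: 2 were higher in cKO and 1 lower in NT, 2 higher and 2 lower with LPS, and 1 higher and 2 lower with IL-4. Their summed level was 61.8 CPM in WT NT and 61.1 in cKO NT, 24.3 and 24.7 with LPS, and 92.2 and 71.3 with IL-4, with Nfatc1 highest in each library, and the defining genes Calcr and Oscar stayed at most at 0.128 CPM. Dcstamp had 4.08 CPM in WT NT and 7.52 in cKO NT.

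Arsb, a sulfatase of dermatan sulfate breakdown, was higher in cKO in NT and after LPS. It had 1114 counts in WT NT and 2090 in cKO NT, 260 and 639 with LPS, and 968 and 760 with IL-4. The log2 fold changes were 1.10 (limits 1.02 to 1.23) and 1.31 (1.18 to 1.60), and -0.22 after IL-4, where it was not called. The call held when centred on length. Slc11a2, an iron transporter, was higher in cKO after IL-4, at 146 CPM in WT and 230 in cKO.

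Several abundant hydrolases were lower in cKO. Ctss had 3543 CPM in WT and 2502 in cKO in NT, 3503 and 2437 with LPS, and 3207 and 2986 with IL-4; it was called lower in NT and after LPS, with log2 fold changes of -0.50 and -0.52. Ctsd had 14530 and 13808 CPM in NT, 5047 and 3624 with LPS, and 7965 and 5383 with IL-4, and was lower after LPS (-0.48) and IL-4 (-0.57). Lgmn was lower in NT, 1330 against 796 CPM, a log2 fold change of -0.74, with 1319 and 1118 CPM after LPS and 1227 and 1148 after IL-4. Napsa (an aspartic protease) and Ctns (the cystine exporter) were lower after LPS, at 29.8 against 19.5 CPM and 10.3 against 6.62 CPM. These calls of Ctss, Ctsd, Lgmn, Napsa and Ctns held when centred on length. In NT the macrophage markers moved with them: 6 of 8 macrophage genes were lower in cKO and 1 higher. Lyz2, which is among these 6, had 10950 CPM in WT and 7202 in cKO. Only cKO mice carry the Cre at this locus, so for Lyz2 a macrophage change and the Cre cannot be told apart. With LPS 3 of the 8 were lower and 2 higher, and Lyz2 had 6902 and 2892 CPM. With IL-4 4 were lower and 2 higher, and 5 of 8 tested neutrophil genes were higher in cKO. The part of these markers in the result was not tested.

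By role, in NT, 5 of 14 proteases and 4 of 6 sulfatases were lower in cKO (all genes: 25.9%), with 1 higher in each list (21.7%). Igf2r, the large mannose 6-phosphate receptor, was lower in NT, 420 against 219 CPM, with a log2 fold change of -0.93; it is among the longest transcripts, and it kept its call when centred on length. After LPS, 5 of 14 proteases and 3 of 13 membrane proteins were lower (8.76%), with 1 protease and no membrane protein higher (17.1%); by the median ratio 8 proteases were lower (11.1%). After IL-4, no glycosidase, membrane protein or member of the mannose 6-phosphate pathway was called in either direction, although 2 glycosidases and 1 membrane protein were lower when centred on length. With the fold rule alone, the numbers of members called stayed within 1.5 times those above in every BMDM comparison.

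In the libraries labelled Raw264.7, values are reads divided by a size factor within each table, calls rest on the fold change of at least 1.2 alone, and levels were compared only within a table. Lysosome genes were more often higher than lower in both lines set against WT Zmynd8, which share that library. The D/E-A table lists 12771 genes, each with at least 21 reads with WT Zmynd8 but as few as 0 with D/E-A. The KO table lists 23772 genes without such a floor. A gene low with WT Zmynd8 and high with D/E-A is thus not listed, and the shares of the 2 tables rest on unlike gene sets. With D/E-A, 59 of 107 tested members were called higher (all genes: 36.7%) and 17 lower (35.9%), with a median log2 fold change of 0.31 against 0.02 for all genes. In the Zmynd8 KO, 57 of 116 were called higher (33.8%) and 16 lower (36.5%), with a median of 0.26 against -0.03. The read test on recovered reads left 52 higher and 9 lower in the KO, where the genes called in all went from 14978 to 6683. Centring on length brought the KO median to 0.15. Centred on length, the counts were 56 higher (31.6%) and 14 lower (33.0%) with D/E-A, and 50 higher (30.3%) and 16 lower (31.9%) in the KO. Spearman's correlation with length was 0.48 over 11368 genes and 0.44 over 107 members with D/E-A, and 0.22 and 0.17 in the KO.

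Cell type markers moved with these comparisons. With D/E-A, 7 of 8 macrophage markers were higher and none lower, and all 9 neutrophil markers were lower. Their summed values went from 84823 to 168033 (macrophage) and from 188002 to 82008 (neutrophil). In the KO, 7 of 8 macrophage markers were higher and 5 of 9 neutrophil markers lower, with sums from 90533 to 122849 and from 200659 to 142591. Adgre1, which encodes the macrophage marker F4/80, had values of 6043 and 16256 in the D/E-A table and 6450 and 13137 in the KO table. The ribosomal gene Rn18s-rs5 took 13.8% of reads with WT Zmynd8, 6.50% with D/E-A and 11.1% in the KO. The part of these markers in the lysosome results was not tested. As a check of the labels, Zmynd8 had values of 506 with WT Zmynd8 and 116 in the KO, the latter the single value of its column that is not a whole number of reads, and 474 and 509 in the D/E-A table.

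Glycosidases and transporters were mostly higher against WT Zmynd8. Of 15 glycosidases, 10 were higher and none lower with either line. Of all genes, 36.7% were higher and 35.9% lower with D/E-A, and 33.8% and 36.5% in the KO. Proteases were 5 of 15 higher and 3 lower with D/E-A, where the share higher was near that of all genes, and 7 of 16 higher and 2 lower in the KO. Sulfatases were 4 of 6 higher and 1 lower in each, and lipid hydrolases 4 of 8 higher and none lower in each. Man2b1, the α-mannosidase, had values of 2521 and 6049 with D/E-A and 2690 and 4467 in the KO. Asah1, the acid ceramidase, had the largest rise in both tables among members with a mean value of at least 50, 815 and 2284 with D/E-A and 870 and 2054 in the KO, log2 fold changes of 1.49 and 1.24. Arsb had 117 and 290 with D/E-A and 125 and 234 in the KO. Ctsc had 19671 and 46305 with D/E-A and 20995 and 41549 in the KO. Of 8 and 9 transporters, 7 were higher with D/E-A and 6 in the KO, and none lower. Of the 5 genes of mannose 6-phosphate tagging and receptors, 4 were higher in each and none lower, with 2 higher in the KO when scaled by the total. Coats and adaptors were 11 of 22 higher and 6 lower with D/E-A, and 7 of 23 higher and 3 lower in the KO, where the share higher was near that of all genes. When centred on length, 6 and 4 of them were higher (all genes: 31.6% and 30.3%). Gnptab, which makes the tag, had 1059 and 2601 with D/E-A and 1130 and 1850 in the KO.

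Other members were lower. Dnase2a, the acid DNase of lysosomes, had 698 and 287 with D/E-A and 745 and 445 in the KO. Ctla2a had 580 and 261 with D/E-A and 619 and 373 in the KO. Ap4s1, an AP-4 adaptor subunit, had 217 and 119 with D/E-A and 232 and 160 in the KO. Cd63 had 5944 and 3366 with D/E-A and 6344 and 4581 in the KO. The abundant Ctsb and Psap were not called in either table. Ctsb had 72775 and 87306 with D/E-A and 77675 and 92929 in the KO, log2 fold changes of 0.26 in each, just under the fold rule and near the members' medians. Psap had 53002 and 57801 with D/E-A and 56570 and 64207 in the KO. Ctsk, higher in cKO BMDMs, had 60.6 and 44.0 with D/E-A, where it was lower, and 64.7 and 71.9 in the KO, where it was not called. Among the regulators, 13 of 22 were higher (all genes: 36.7%) and 6 lower (35.9%) with D/E-A, but 8 higher and 5 lower when centred on length. Mitf had 939 and 1625, Tfeb 360 and 189, and Tfe3 1243 and 2034, of which Tfe3 was no longer called when centred on length (0.20). In the KO table Mitf had 1002 and 1285, a call lost when centred on length (0.15), Tfeb 384 and 348, which was not called, and Tfe3 1326 and 1948.

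**Figure D5:**
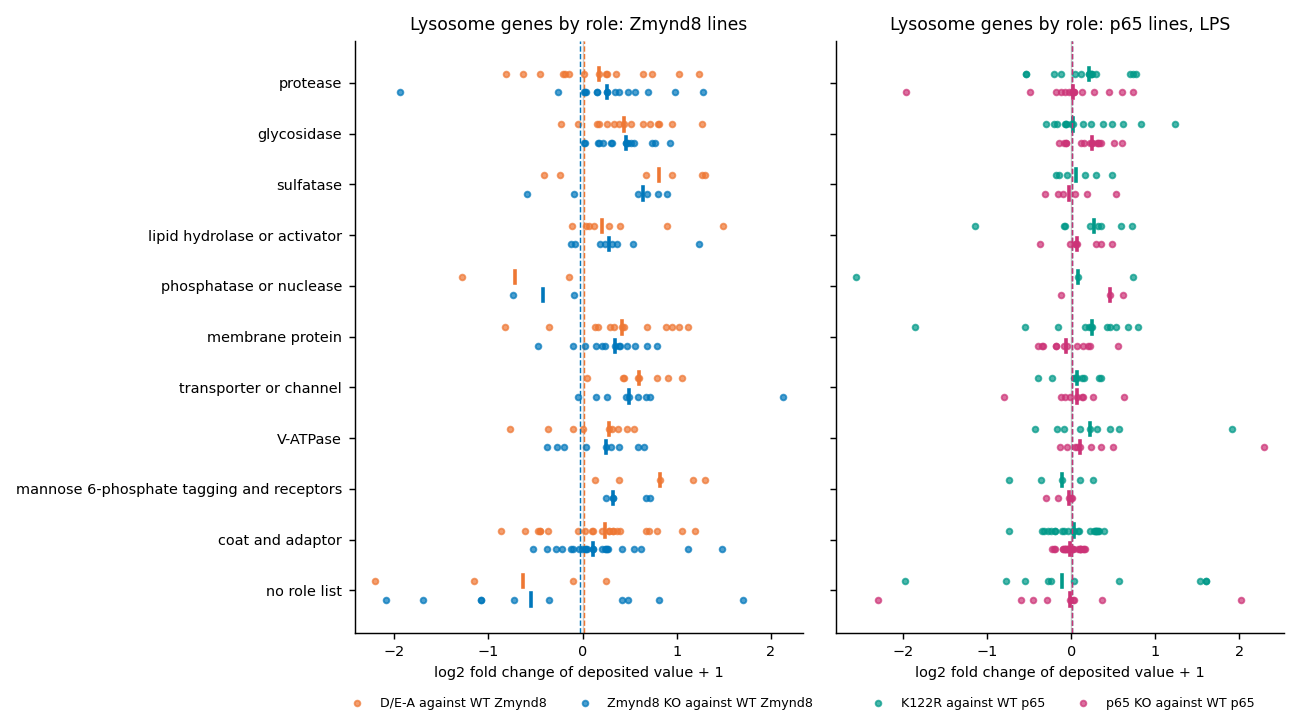
Log2 fold change of the deposited value plus 1 for each tested lysosome gene (points) by role, for the Zmynd8 lines (left) and the p65 lines with LPS (right), with thick bars at each role's median and dashed lines at the median of all genes. Glycosidases, transporters and the mannose 6-phosphate genes lie mostly right of the dashed lines on the left panel, and coat genes of the p65 KO lie within a narrow band around 0 on the right panel.

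In the p65 lines with LPS, which share the WT p65 library, differences were smaller. With K122R, 39 of 115 members were called higher (all genes: 30.8%) and 19 lower (32.5%), with a median of 0.11 against 0.01. Scaling by the total over all genes turned this to 21 higher (23.2%) and 32 lower (42.8%) with a median of -0.03, so no direction is given for the group. In the p65 KO, 23 of 114 were called higher (26.3%) and 13 lower (25.7%), with a median of 0.03 against 0.01. Adding the test on recovered reads left 16 higher and 5 lower members in the p65 KO, where the genes called in all went from 10325 to 2620, and 32 higher and 11 lower with K122R, where they went from 12451 to 5217. Macrophage markers moved here too: 4 of 8 were higher and 2 lower with K122R, with sums from 24662 to 33542, and 2 higher and 1 lower in the p65 KO, from 24714 to 29456. Rn18s-rs5 took 0.179% of reads with WT p65, 0.509% with K122R and 0.205% in the p65 KO. The part of these in the members' values was not tested. Rela had values of 1571 with WT p65 and 5963 with K122R in one table, and 1574 with WT p65 and 778 in the KO in the other.

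Single members moved further than the group. Gla had values of 120 with WT p65 and 213 with K122R, where it was called higher, and 120 and 113 in the p65 KO table, where it was not. Npc2 had 8853 and 15348 with K122R and 8871 and 9806 in the p65 KO table. Sort1 had 310 and 84.6 with K122R, and 311 and 236 in the p65 KO table, lower in both. Igf2r had 15583 and 9290 with K122R and 15616 and 15565 in the p65 KO table. In the p65 KO, 6 of 15 glycosidases were higher (all genes: 26.3%) and none lower (25.7%), and none of 23 coats and adaptors was called in either direction, by the fold rule alone. Ctsh had 121 and 202, Dnase2a 470 and 723, and Ctsc 1343 and 952, which was lower.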

How the data were processed

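BMDM reads were aligned by the authors with TopHat to the mm10 transcriptome, and the deposited values are estimated counts per gene and TPM per gene; the counter is not given in the sources used here. For Raw264.7 lines, the deposited signal per gene is reads over the library's size factor: 100.0% of values were within 0.01 of a whole read in every library but the Zmynd8 KO (99.996%). The deposited fold changes and p-values hold the authors' own comparisons and were not used, nor were 2 unlabelled columns of per-sample values.

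Counts were rounded and divided by library totals (CPM). Log2 fold changes used a pseudocount of 1. Genes averaging 10 counts or more (BMDMs) or a value of 1 or more (Raw264.7) were tested and called from a 1.2-fold change; in BMDMs also an adjusted p under 0.05 (two-sided exact binomial test, Benjamini-Hochberg over all genes tested), which compares libraries and not conditions. The same test on recovered reads was an alternative for Raw264.7 lines and called 7840 genes with D/E-A, 6683 in the Zmynd8 KO, 5217 with K122R and 2620 in the p65 KO. The design took the deposited values as normalized, so the fold rule was applied to them without a test. Limits on shares and counts are 95% Clopper-Pearson limits. Lengths came from the longest GENCODE transcript in 20 bins, an alternative chosen after seeing the data. Scripts were tested on simulated data (Python 3.11.15, numpy 2.4.6, pandas 2.3.3, scipy 1.17.1).

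The members and lists were chosen with earlier results of these data known. Named genes are a list of well-known lysosome genes, per comparison the 3 highest and 3 lowest called members averaging 100 counts or more, or a value of 50 or more, the 10 of highest mean TPM, Zmynd8, Rela, and regulators and markers where their list is described. Other members, such as Man2b1, Pla2g15, Ctsg and Cltc, were named after their values were seen. Some genes that these rules name are not reported here. Other samples of the series were not analysed here.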

Additional observations from a re-analysis of the deposited data

Results flagged for a closer look

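Members called in opposite directions under the same contrast are given here as values. Each rests on 1 library per condition, and the difference between genotypes was not tested beyond counting error. For cKO against WT, the log2 fold change of Ap4e1 was -1.16 in NT and 0.36 after LPS, that of Galc -0.41 and 0.40, and that of the unnamed locus AC034099.1 -0.46 and 1.09. It was 0.37 in NT and -0.33 after LPS for Atp6v0d1, 0.39 and -0.30 for Atp6v0b, 0.31 and -0.37 for Cd63, and 0.48 and -0.40 for Cltb. Ids had -0.57 in NT, 0.37 after LPS and -0.39 after IL-4, and Cltc had -0.69, 0.32 and -0.38. Acp2 had -0.27 in NT and 0.38 after IL-4. The correlations of these contrasts with transcript length had opposite signs too, -0.52 in NT and 0.34 after LPS over all genes, and the part of length in these pairs was not tested. For LPS against NT, Ctsk had 0.55 in WT and -0.66 in cKO, and Atp6v0b had 0.34 in WT and -0.35 in cKO. Both pairs depend on the scaling: in cKO Ctsk became -0.0046 by the median ratio and 0.082 centred on length, and Atp6v0b became 0.31 and 0.52.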

How the results depend on the processing

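With 1 library per condition, depth limits only counting error, and treatment, genotype and library cannot be told apart. Pairing by replicate was not possible because each condition has 1 library and no replicate numbers are shared. A fit of genotype with treatment as the block, which would take any difference of the genotype effect between treatments as error, was not run. A pseudocount of 0.1 left every count and median within the limits set for the main values (counts within 1.5 times, medians within 0.1), and no filter did so except for the LPS median in WT, which became -0.45.

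A fold change of at least 2, with the shares of all genes higher and lower in parentheses, left 2 higher and 1 lower members for cKO against WT in NT (0.971% and 2.86%), 3 and 0 after LPS (0.573% and 0.331%), and 1 and 0 after IL-4 (1.56% and 0.408%). It left 7 and 34 for LPS against NT in WT (10.5% and 32.8%), 10 and 38 in cKO (13.2% and 32.8%), 10 and 9 for IL-4 against NT in WT (10.0% and 6.19%), and 13 and 13 in cKO (15.0% and 6.09%). It left 13 and 3 with D/E-A (6.94% and 11.4%), 6 and 5 in the Zmynd8 KO (8.29% and 17.3%), 5 and 4 with K122R (10.5% and 9.46%), and 2 and 2 in the p65 KO (9.26% and 6.58%). The D/E-A shares cover only genes with at least 21 reads with WT Zmynd8. Adding the read test to the fold rule left 9 lower in the Zmynd8 KO, 11 with K122R and 5 in the p65 KO. All genes called, in either direction, went from 14978 to 6683, from 12451 to 5217 and from 10325 to 2620 in the same order.

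Scaling by the median ratio gave 28 members lower for cKO against WT after LPS, 46 higher and 35 lower with a median of 0.074 for LPS in WT, 37 and 42 with 0.021 for LPS in cKO, and medians of -0.14 and -0.16 for IL-4 in WT and cKO. Scaling by the total gave 21 higher, 32 lower and a median of -0.034 for K122R. Centring on length gave 40 higher and 43 lower with a median of -0.037 for LPS in WT, 38 and 43 with -0.025 for LPS in cKO, medians of -0.12 and -0.13 for IL-4 in WT and cKO, and 0.15 for the Zmynd8 KO. Shares of TPM in place of counts were 6.03%, 4.43% and 4.36% in WT NT, LPS and IL-4 and 4.82%, 4.13% and 3.95% in cKO.

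Of all called members, 15 of 88 for LPS in WT and 19 of 94 in cKO changed sign by the median ratio, and 12 and 15 centred on length. Centring also turned 3 for cKO against WT in NT, 2 for IL-4 in cKO and 5 with D/E-A. Among the genes that the naming rule picked, these did. For LPS in WT, Cd63 became 0.24 by the median ratio and 0.11 centred on length, Ctsb 0.35 and 0.39, Slc11a1 0.40 and 0.21, and by the median ratio Cd68 0.074 and Laptm5 0.0028. For LPS in cKO, Slc11a1 became 0.17 and 0.13, Atp6v0c 0.13 and 0.10, by the median ratio Ctsb 0.16 and Igf2r 0.043, and centred on length Ctsk 0.082. For cKO against WT in NT centred on length, Ctsl became 0.026 and Npc1 0.0016. By construction these settings move every gene by 1 amount or by that of its length; no other cause was tested.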
